A study of Mus musculus with 12 samples.

Results

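Cytosolic ribosomal protein genes were followed across the basophils of this study by their symbols: every gene named Rpl, Rps or Rplp with a number, with or without a short suffix, and averaging 10 CPM or more (the count scaled to a common library size, taken without the Rn45s ribosomal RNA entry) over the 12 libraries. Of 31301 gene symbols in the count table, 84 matched the name and 80 met the minimum, 31 of the small and 49 of the large ribosomal subunit. All 80 also passed the filter on low counts that left 10822 genes for testing. GENCODE lists 79 of them as protein coding, and Rpl32l as a processed pseudogene. The members nearest above the minimum were Rpl32l at 10.6 CPM, Rpl7l1 at 48.2 and Rpl22l1 at 81.5, and below it lay Rps4l at 6.49, Rpl3l at 1.05, Rpl39l at 0.448 and Rpl10l, which had 0 counts in every library. The name leaves out some ribosomal protein genes, of which Rpsa, Rack1, Fau and Rpl36al are given separately.

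Bone marrow cells of wild-type C57BL/6J mice, whose age the sources used here do not give, were cultured for 7 days with interleukin 3 (IL-3, 0.3 ng/mL) or with thymic stromal lymphopoietin (TSLP, 1 µg/mL by the treatment protocol and the study's methods, although the sample labels give this dose in milligrams). Under either cytokine, immature cells (FcεRIαhi CD49blo, the pre-basophil phenotype) and mature basophils (FcεRIαlo CD49bhi) were sorted, and polyadenylated RNA was sequenced. The labels do not say whether both stages came from the same cultures. Each of the 4 groups had 3 libraries. The comparisons ask how the transcripts differ between the stages under either cytokine and between the cytokines at either stage.

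Each ribosomal subunit pairs ribosomal RNA with a fixed set of ribosomal proteins, nearly all present once per ribosome, and their mRNAs are among the most abundant in growing cells. Most of these mRNAs begin with a C followed by a run of pyrimidines, the 5′ terminal oligopyrimidine (TOP) motif, through which mTORC1 and LARP1 tie their translation and stability to growth signals. The encoded proteins are small and basic, so the mRNAs are short.

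The start regions below show how far members that differed most share this element. They are stretches of 30 bases, from 10 before the annotated start to 20 from it on (RefSeq, GRCm38.p6), written 5′ to 3′ on the gene's strand. Capitals mark the longest uninterrupted run of at least 5 C or T bases that opens with C. Rpl38, Rps27 and Rps28 were the members furthest below IL-3 levels in TSLP mature cells, and Rps2 was above IL-3 levels. Rplp0 passed the main test in no comparison, and Rpl10a and Rpl22l1 were among the largest stage differences. The positions of all these genes were chr11:114668570-114668599 (plus strand), chr3:90213629-90213658 (minus), chr17:33824543-33824572 (minus), chr17:24720053-24720082 (plus), chr5:115559457-115559486 (plus), chr17:28328461-28328490 (plus) and chr3:28805498-28805527 (plus), in the same order.
Rpl38: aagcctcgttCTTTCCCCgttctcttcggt
Rps27: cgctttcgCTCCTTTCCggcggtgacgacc
Rps28: cgcgtgcggtctcgcgagagcgaaagtgag
Rps2: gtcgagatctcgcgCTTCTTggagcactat
Rplp0: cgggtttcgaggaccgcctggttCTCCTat
Rpl10a: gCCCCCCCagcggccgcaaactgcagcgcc
Rpl22l1: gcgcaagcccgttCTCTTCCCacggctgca

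Of the 7, Rpl38 alone had a run opening at the annotated first base, and Rps28 had none in this window. A start was listed for 60 of the 80 members, 37 of which (61.7%) held such a run, against 35.8% of 27025 genes in the same table. The share was 62.2% among the 37 members lower in TSLP than IL-3 mature cells and 60.9% among the other 23. Starts used in these cells were not measured, 9 members had several listed starts of which the first was used, and a run of these letters is a description and not a mapped TOP motif.

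The libraries held 1720065 to 3685285 counts, with 14494 to 16256 genes detected. Polyadenylated RNA had been selected, yet 14.7% to 40.1% of counts fell on the 4 ribosomal RNA entries. The 18S and 28S counts together were 0.982 to 0.999 of the Rn45s count in each library, which is what counting the same reads for both would give. All 8 basophil markers (Mcpt8, Prss34, Cd200r3 and others) passed the filter and summed to 32566 to 50013 CPM in immature and 9261 to 14117 CPM in mature cells. Mast cell, erythroid and dendritic markers summed to at most 10.03 CPM in any library. B lineage markers, of which 3 of 10 passed the filter, summed to at most 8.75 CPM under IL-3. They summed to 42.8 to 48.3 CPM in TSLP immature cells and to 218, 23.4 and 24.6 CPM in TSLP mature libraries 1 to 3. TSLP mature library 1 also held the most neutrophil marker counts, 1695 CPM against 763 and 737 in libraries 2 and 3.

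The 80 ribosomal protein genes together took a smaller part of the counts in TSLP than in IL-3 cultures. Their share of counts without Rn45s was 7.31%, 7.00% and 6.27% in IL-3 immature libraries 1 to 3 and 5.57%, 5.09% and 4.93% in IL-3 mature ones. It was 4.19%, 4.5% and 2.71% in TSLP immature and 4.33%, 2.41% and 1.63% in TSLP mature libraries. All 6 TSLP libraries were below all 6 IL-3 libraries, and the third library of each TSLP group was the lowest of its group. The means were 6.86% ± 0.53 and 5.20% ± 0.33 under IL-3 and 3.8% ± 0.96 and 2.79% ± 1.39 under TSLP (immature then mature, SD, n = 3). Counting error was small beside this spread: the exact 95% binomial interval of the lowest library ran from 1.61% to 1.64%. With all ribosomal RNA entries left out of the total, the separation of the cytokines was narrow. The highest TSLP library (immature library 2) was then at 5.71% and the lowest IL-3 library (mature library 3) at 5.73%. In bulk samples fewer cells with ribosomal protein transcripts and less of them per cell cannot be told apart.

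Other short transcripts moved with this share between the cytokines. Between the stages under IL-3 they moved the other way. The 2659 other genes with a transcript under 700 bases took 4.79% ± 0.40 of counts in immature and 5.41% ± 0.15 in mature libraries under IL-3, and 3.19% ± 0.59 and 3.02% ± 0.58 under TSLP (SD, n = 3). Their share was 2.0 percentage points lower under TSLP in a two-sided exact permutation test within stages (p = 0.005, the smallest that 400 relabellings can give). Between stages, averaged over the cytokines, it differed by 0.22 points, lower in immature cells (exact permutation p = 0.465). The ribosomal RNA entries moved as well: in immature cells they took 35.3%, 35% and 40.1% of counts under TSLP and 14.7%, 22.9% and 25% under IL-3. In mature cells they took 17.3%, 31.5% and 34.7% under TSLP and 20.4%, 20.2% and 24.5% under IL-3. The part of short transcripts and of ribosomal RNA in the results on ribosomal protein genes was not tested beyond the length adjustments given here.

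**Figure D1:**
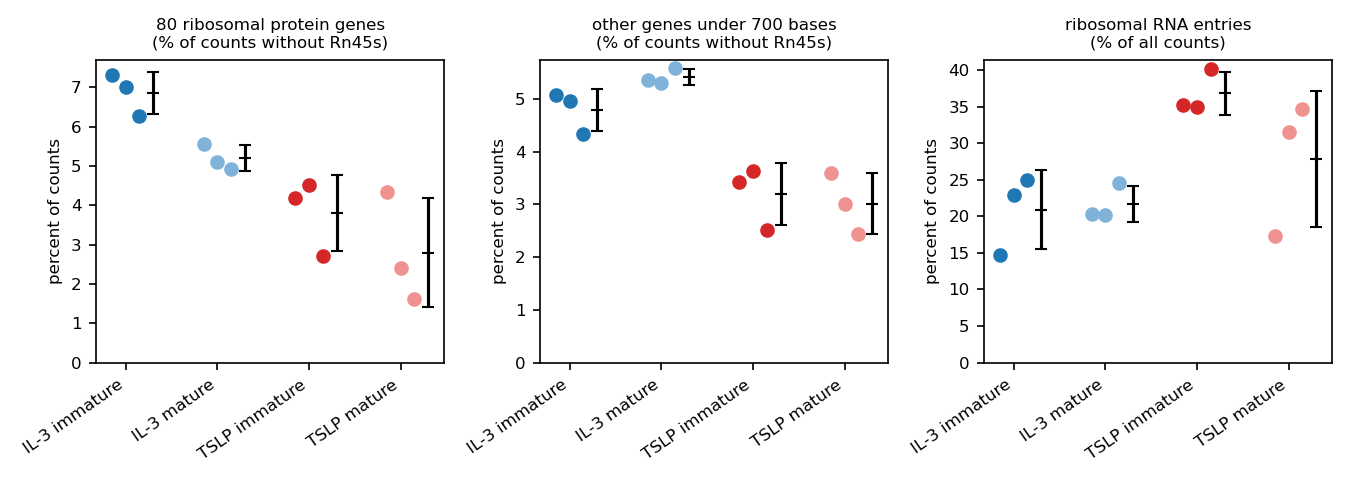
Percent of counts per library (points) with the mean and SD of each group (bars), for the 80 ribosomal protein genes, for other genes with transcripts under 700 bases, and for ribosomal RNA entries. The ribosomal protein share falls between 4.93% and 7.31% in IL-3 libraries and between 1.63% and 4.5% in TSLP libraries.

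The most members differed between the cytokines in mature cells, where 50 of the 80 members were lower in TSLP than IL-3 mature basophils and 2, Rpl3 and Rps2, were higher (edgeR quasi-likelihood test, adjusted p under 0.05). Of all genes tested, 23.9% passed, 13% as lower and 10.9% as higher. The median log2 fold change of the members was -1.56, beside 0.05 over all genes. By subunit, 20 of 31 small and 30 of 49 large subunit genes were lower. Leaving out any single library gave 45 to 68 calls.

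Rpl38, a small protein of the large subunit needed for normal translation of certain Hox mRNAs, was furthest down. Its level was 604, 595 and 692 CPM in IL-3 mature libraries 1 to 3 and 85.1, 77.4 and 17.0 CPM in TSLP mature ones. The groups were far apart, and TSLP library 3 was several times below libraries 1 and 2. The log2 fold change was -3.39 (SE 0.57, adjusted p = 0.0011, edgeR). Rps27, a zinc-finger protein of the small subunit, stood at 1312, 1257 and 1474 CPM under IL-3 and at 252, 158 and 43.9 CPM under TSLP, with a log2 fold change of -3.15 (SE 0.57, adjusted p = 0.0018, edgeR). Rps28, which sits near the mRNA exit site of the small subunit, stood at 442, 479 and 460 CPM and at 90, 53.7 and 12.6 CPM, with a log2 fold change of -3.14 (SE 0.62, adjusted p = 0.0029, edgeR). In both genes all TSLP libraries were below all IL-3 libraries and library 3 was again the lowest.

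The 3 stalk proteins, which form the arm that recruits translation factors to the large subunit, did not all pass the test. Rplp1 stood at 1768, 1621 and 1568 CPM in IL-3 mature and 750, 451 and 169 CPM in TSLP mature libraries, and was lower (log2 -1.86, SE 0.43, adjusted p = 0.0071, edgeR). Its partner Rplp2 was lower too, with a log2 fold change of -2.20 (SE 0.51, adjusted p = 0.0076, edgeR). Rplp0, the longer protein that anchors them to ribosomal RNA, stood at 1827, 1602 and 1402 CPM under IL-3 and 3423, 1649 and 2379 CPM under TSLP. The Rplp0 groups overlapped, and its log2 fold change of 0.62 (SE 0.23) missed the threshold (adjusted p = 0.059, edgeR). With the length adjustments described below, Rplp0 passed as higher when the transcript length trend of all or abundant other genes was removed. Its log2 fold changes were then 0.59 and 0.69 (edgeR adjusted p = 0.011 and 0.0022). With the trend on coding length removed it did not pass (edgeR adjusted p = 0.053).

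The other members with well-known roles fell on both sides of the threshold. Rpl11, which with Rpl5 binds Mdm2 when ribosome assembly is disturbed, was lower (log2 -1.31, SE 0.34, adjusted p = 0.013, edgeR). Rpl5 itself stood at 1112, 908 and 708 CPM under IL-3 and 1930, 923 and 1076 CPM under TSLP, overlapping groups with a log2 fold change of 0.53 (SE 0.25, adjusted p = 0.14). Rps19, the protein most often altered in Diamond-Blackfan anaemia, was lower with a log2 fold change of -1.99 (SE 0.44, adjusted p = 0.0057), as were Rps25, required by some viral internal ribosome entry sites (-1.59, SE 0.38), and Rpl13a, known also from an interferon-linked translational silencing complex (-1.18, SE 0.33). The Rpl13a call was lost without TSLP mature library 2 (adjusted p = 0.053). Rps27a, made as a fusion with ubiquitin, had a log2 fold change of -1.11 (SE 0.40, adjusted p = 0.057). The S6 kinase substrate Rps6 (0.14, SE 0.27), Rps3 of the mRNA entry channel (0.11, SE 0.28) and Rpl10, which is added late in large subunit assembly (-0.31, SE 0.30), did not pass the test.

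Rpl3, a protein that reaches toward the peptidyl transferase centre, went the other way. It stood at 170, 124 and 125 CPM in IL-3 mature libraries 1 to 3 and at 494, 297 and 353 CPM in TSLP mature ones. All TSLP libraries were higher, with a log2 fold change of 1.45 (SE 0.21, adjusted p = 0.0005, edgeR). Its gene lies at chr15:80077791-80091868 (GRCm38, minus strand), and 21.7% of its stretches of 50 exonic bases also occur in a listed pseudogene, Gm5879, so part of its count is uncertain. Rps2, another entry channel protein, stood at 165, 171 and 187 CPM under IL-3 and 556, 288 and 273 CPM under TSLP, again without overlap (log2 1.09, SE 0.23, adjusted p = 0.0047).

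**Figure D2:**
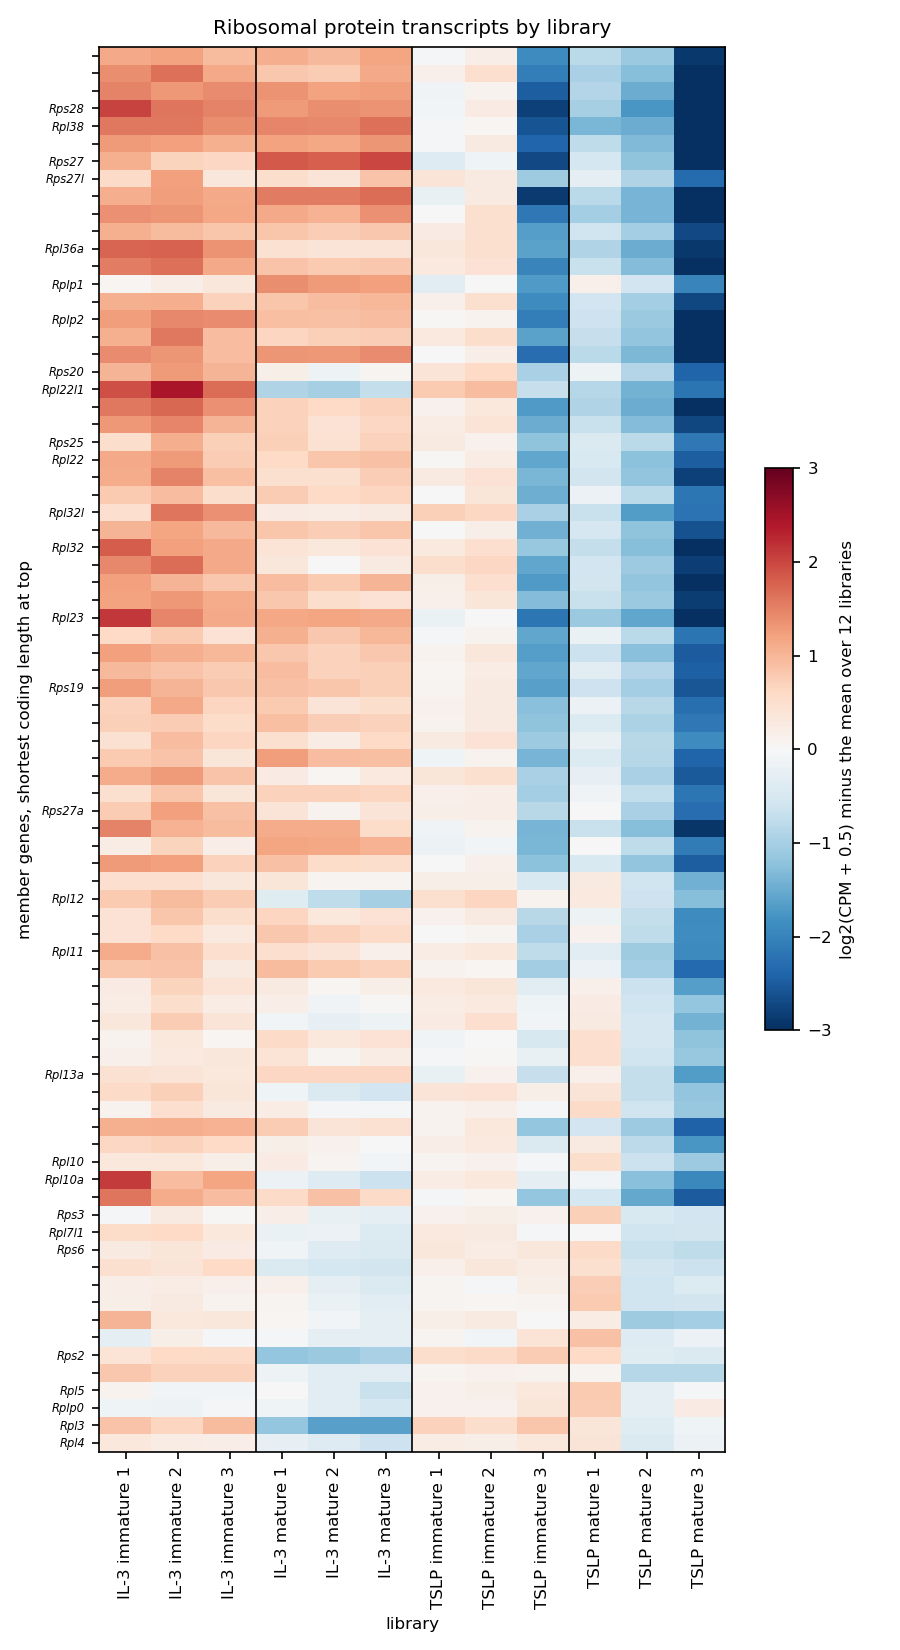
Heat map of the 80 ribosomal protein genes (rows, shortest coding length at the top, with some rows labelled) in the 12 libraries (columns). Colour gives log2(CPM + 0.5) minus the gene's mean over the libraries, with the scale ending at 3 below and 3 above. The upper rows are darkest blue in the third library of both TSLP groups, and the lowest rows, which hold Rplp0, Rpl3 and Rpl4, show no such column.

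The members divided by length. Of the 49 members with a coding sequence under 500 bases, 43 were lower in TSLP mature cells (median log2 fold change -1.95), against 6 of the 16 with 500 to under 700 bases (median -0.65) and 0 of the 14 with 700 bases or more (median 0.28), the class that holds Rpl3 and Rps2. These limits were chosen after the values were seen. Across the 79 members with a coding sequence, Spearman's rho between its length and the log2 fold change was 0.847, and with the GC content of the transcript it was -0.009. The genes share libraries and are not independent. Genes outside the list showed a like order among short transcripts, though not over all lengths: Spearman's rho with transcript length was 0.605 in the 80 members, 0.233 in 3336 other genes under 2000 bases and 0.022 in 10135 other genes of any length. By class, of 468 other tested genes with transcripts under 700 bases, 188 (40.2%) were lower and 13 (2.78%) higher in TSLP mature cells, and of the 83 of these at 100 CPM or more, 50 (60.2%) were lower. Of 9667 longer genes, 10.7% were lower and 11.7% higher.

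To see how much of the difference followed length, the trend of log2 CPM on transcript length among the other genes was taken out of each library. This was an adjustment chosen after seeing the data. With the trend of all other genes removed, 53 members were lower and 4 higher in TSLP mature cells (28.6% of genes passed), and the median was -1.25. With the trend of other genes at 100 CPM or more, which was steeper among short transcripts, 44 were lower and 8 higher (32% of genes passed), and the median was -0.88. With the trend on coding length, 56 were lower and 2 higher (27.8% of genes passed). Over the 25 alternatives run for Rpl38, its log2 fold change ran from -3.73 to -1.93 and passed the test in each.

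**Figure D3:**
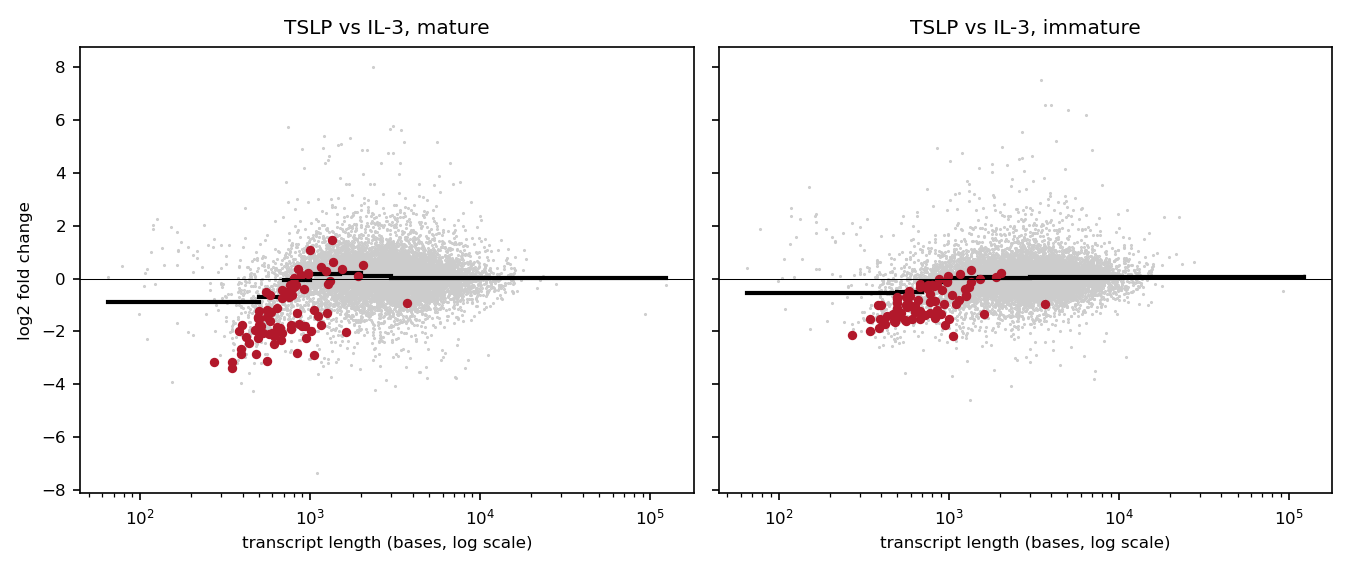
Log2 fold change of TSLP against IL-3 cells (vertical) by transcript length in bases (horizontal, log scale), for mature and immature cells. Red points are the 80 ribosomal protein genes, grey points the other genes tested, and black lines the median of the other genes in each length class, which in mature cells was -0.89 under 500 bases and 0.16 from 1000 to 1500 bases.

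In immature cells the TSLP difference had the same sign for most members, and in the main test 13 of them passed. These 13 were all lower in TSLP immature than IL-3 immature cells, where 12.9% of genes passed, 6.11% as lower and 6.75% as higher. The members' median log2 fold change was -0.97 (0.01 over all genes). The largest were Rpl23, at the interface between the subunits (-2.16, SE 0.49, adjusted p = 0.010, edgeR), Rps28 (-2.14, SE 0.59) and Rpl38 (-2.00, SE 0.53). Rpl23 stood at 2148, 1358 and 1091 CPM in IL-3 immature libraries 1 to 3 and at 431, 491 and 109 CPM in TSLP immature ones, without overlap. Rps28 stood at 744, 549 and 512 CPM and at 170, 214 and 25.5 CPM. In each gene TSLP immature library 3 was the lowest. Rpl23 and Rps28 lost their calls without IL-3 immature library 1 (adjusted p = 0.056 and 0.096), and Rpl38 lost its call without IL-3 immature library 1 or 2 (0.071 and 0.059). Rps28 was also lost without IL-3 immature library 2 or TSLP immature library 1 or 3 (adjusted p = 0.055 to 0.058).

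Of the other members of known role, Rplp2 was lower as well (-1.73, SE 0.50, adjusted p = 0.034, edgeR), a call lost without any 1 of the IL-3 immature libraries or TSLP immature library 1 or 3, while Rplp1 (-0.73, SE 0.42), Rplp0 (0.32, SE 0.23), Rpl5 (0.23, SE 0.25), Rpl11 (-0.85, SE 0.34) and Rps19 (-1.25, SE 0.43) did not pass. Between the stages, 11 members passed as lower in TSLP cells both when immature and when mature. Rpl22l1 and Rpl10a passed in immature cells with no call in mature ones (the Rpl10a call was lost without IL-3 immature library 1 or any 1 of the TSLP immature libraries), and neither had an interaction past the threshold in the main test (adjusted p = 0.30 and 0.41), although that of Rpl22l1 passed with a transcript length trend removed (adjusted p = 0.047 and 0.0041). The count of 13 rested on single libraries. It was 1 without IL-3 immature library 1, 4 without library 2, 3 without TSLP immature library 3, 7 without TSLP immature library 1, and 40 and 42 without TSLP mature libraries 1 and 3, which enter through the shared estimate of spread. It was 13 to 26 under other scalings, 20 with DESeq2, and 54 with no filter on low counts. Removing the length trend gave 34 to 40 members, all lower, with 18.7%, 20.1% and 17.8% of genes passing under the trends of all genes, abundant genes and coding length.

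Under IL-3, the stages differed in 13 members. In IL-3 immature against IL-3 mature cells, 12 members were higher and Rplp1 was lower, where 45.6% of all genes passed (24.2% as higher and 21.4% as lower). Their median log2 fold change was 0.29, beside 0.01 over all genes. Rpl22l1, a paralog of the large subunit protein Rpl22, had the largest value. It stood at 187, 269 and 156 CPM in IL-3 immature libraries 1 to 3 and at 25.7, 24.1 and 29.4 CPM in mature ones, far apart, with a log2 fold change of 2.95 (SE 0.38, adjusted p = 1.3e-05, edgeR). Rpl3 stood at 697, 602 and 745 CPM in immature libraries and at 170, 124 and 125 CPM in mature ones (log2 2.28, SE 0.22, adjusted p = 5.4e-07). Rpl10a, which borders the exit site for used tRNA, stood at 1975, 885 and 1054 CPM and at 413, 357 and 297 CPM (log2 1.87, SE 0.39, adjusted p = 0.0011). Its first immature library was well above the others, and the groups did not overlap.

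Rps2 (log2 1.61, SE 0.24) and Rpl12, at the base of the stalk (log2 1.52, SE 0.31), were also higher in IL-3 immature cells, and the rest of the 12 included Rpl36a, Rpl6, Rpl8, Rpl15, Rpl7l1 and Rpl4, at log2 0.65 to 1.23. The call of Rpl36a was lost without IL-3 immature library 1 or 2 or any IL-3 mature library (adjusted p up to 0.086). Of the 14 members with coding sequences of 700 bases or more, 6 were among the 12, and rho with coding length was 0.268. Rplp1 was at 704, 766 and 849 CPM in immature libraries, below the mature values given above (log2 -1.10, SE 0.42, adjusted p = 0.044), a call lost in 10 of 25 alternatives. Without IL-3 mature library 2 or 3 the count of calls was 8, and without TSLP mature library 1 or 3 it was 22. With the length trend of all other genes removed, 16 members were higher and 4 lower (52.4% of genes passed), and with that on coding length 15 and 3 (52.8%). With the trend of abundant genes removed, 33 were higher and 3 lower (53% passed), and the median over all genes then moved to 0.30 against 0.44 for the members. Markers of other cells moved with stage as well: neutrophil markers summed to 289 to 342 CPM in immature and 1388 to 1618 CPM in mature IL-3 libraries, macrophage or monocyte markers to 22.3 to 57.3 and 266 to 379 CPM, and eosinophil markers to 8.23 to 17.1 and 70.2 to 95.8 CPM. T or NK cell markers went the other way, with 54.5 to 59.7 CPM in immature and 2.58 to 3.32 CPM in mature cells, and the part of these markers in the differences was not tested.

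**Figure D4:**
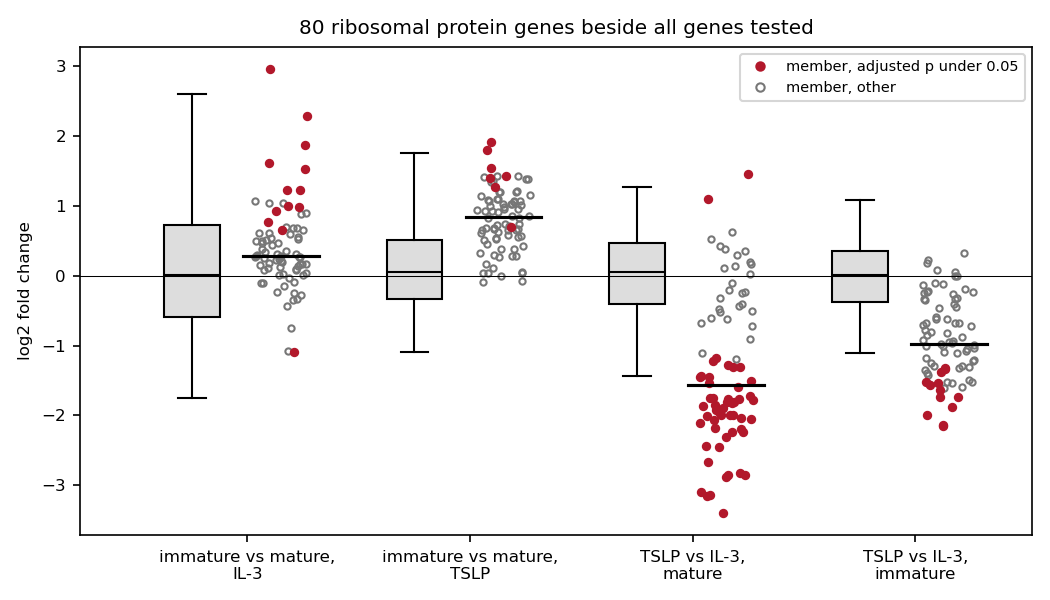
Log2 fold changes of the 80 ribosomal protein genes (points, red where adjusted p was under 0.05, black line at the median) beside all genes tested (grey boxes with the median and quartiles, whiskers from the 5th to the 95th percentile), in the 4 comparisons. The members' medians were 0.29, 0.84, -1.56 and -0.97 from left to right, while those of all genes lay between 0.01 and 0.06.

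In TSLP cultures the stages differed in 7 members, all higher in TSLP immature than TSLP mature cells, where 24.8% of genes passed (14.3% as higher). The 7 were large subunit genes: Rpl22l1 (log2 1.91, SE 0.38, adjusted p = 0.0018, edgeR), Rpl32l (1.80), Rpl36a (1.54), Rpl32 (1.43), Rpl35 (1.39), Rpl31 (1.27) and Rpl3 (0.70). Rpl22l1 stood at 84.2, 93.5 and 29.8 CPM in TSLP immature libraries 1 to 3 and at 26.7, 17.9 and 10.3 CPM in mature ones, and the lowest immature library was just above the highest mature one. Rpl32 and its intronless copy Rpl32l share sequence, so their counts are uncertain. The calls of Rpl3, Rpl32, Rpl32l and Rpl36a were each lost without TSLP immature library 1 or TSLP mature library 2 or 3, and some without other libraries (adjusted p up to 0.13), and that of Rpl22l1 was kept in all 25 alternatives.

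This count too rested on single libraries. It was 1 without TSLP immature library 1 or TSLP mature library 2 or 3, 2 without TSLP immature library 2, 4 without IL-3 immature library 3, 43 without TSLP immature library 3 and 73 without TSLP mature library 1, the library with the highest ribosomal protein share of its group and the most B lineage and neutrophil marker counts. The members' median was 0.84 (0.06 over all genes), and 77 of the 80 had a positive value. Markers of other cells differed between the TSLP stages too, at 402 to 468 CPM in immature and 737 to 1695 in mature cells for neutrophils, 117 to 141 and 400 to 746 for macrophages or monocytes and 15.4 to 22.4 and 65.4 to 97.7 for eosinophils, and their part was not tested. With no filter on low counts 55 members passed. Removing the length trend gave 25 to 32 members, all higher, with 32.5%, 31.3% and 33.4% of genes passing.

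In the main test Rpl3 was the member whose stage difference passed as depending on the cytokine. It was 4.87-fold higher in immature cells under IL-3 and 1.62-fold under TSLP, and the difference between those changes was -1.58 on the log2 scale (SE 0.30, adjusted p = 0.0069, edgeR interaction term), where 4.14% of all genes passed (2.24% as higher and 1.9% as lower). With the length trend of all genes, abundant genes or coding length removed, 3, 4 and 2 members passed, all with a lower value (7.66%, 9.84% and 7.61% of genes passed). Besides Rpl3 these were Rps2 under all 3 trends (log2 -0.90, -1.14 and -0.90, edgeR adjusted p = 0.019, 0.0031 and 0.040), Rpl22l1 under the first 2 (-1.23 and -1.61, adjusted p = 0.047 and 0.0041) and Rpl8 under that of abundant genes (-0.80, adjusted p = 0.017). In immature cells Rpl3 stood at 616, 557 and 686 CPM under TSLP, overlapping the IL-3 immature values. The lower level was therefore in IL-3 mature cells, where its libraries lay below those of every other group. Over all 4 groups 64 of the 80 members differed (59.8% of genes passed). Without a length adjustment, 20 members passed no pairwise or interaction test in the main fit, among them Rpl5, Rpl7, Rpl10, Rplp0, Rps3, Rps4x, Rps6, Rps20 and Rps27a. Of these, Rps20 and Rps27a still passed the edgeR test over all 4 groups (adjusted p = 0.0067 and 0.0086).

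**Figure D5:**
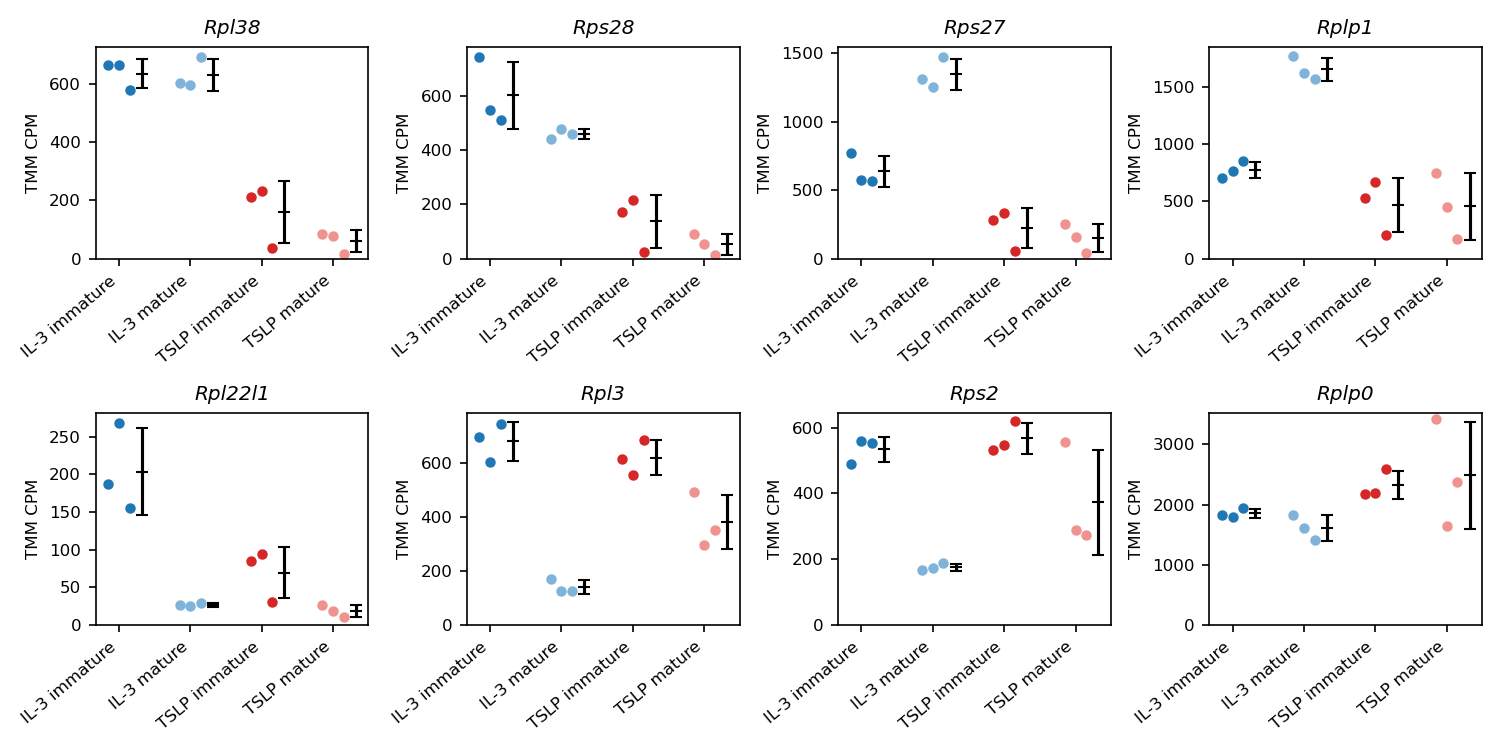
Library values of 8 ribosomal protein genes in CPM scaled by trimmed mean of M values (vertical axis), with group means and SD (bars). Rpl38, Rps28 and Rps27 have their lowest group means in TSLP mature cells. Rplp1 has like values in both TSLP groups that lie below IL-3 mature cells. Rpl22l1 is highest in IL-3 immature cells, Rpl3 and Rps2 are lowest in IL-3 mature cells, and the mature groups of Rplp0 overlap.

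Levels per kilobase of transcript were among the highest for Rpl32 (2035 CPM per kb over all libraries) and Rps27 (1708) and were lowest for Rpl32l (26.3), Rpl7l1 (36.6) and Rps20 (134). The length used for Rps20 was that of a 3706-base transcript.

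Paralogs were compared with their parent genes inside each library, where library size cancels. In 10 two-sided exact permutation tests over 5 pairs, 3 ratios differed between stages and 4 between cytokines. Under IL-3, Rpl22l1 counts were 32.2% of Rpl22 counts in immature and 5.29% in mature cells, and under TSLP 28.3% and 15.3% (geometric means). The log2 ratio was 1.75 higher in immature cells (adjusted p = 0.025, exact permutation) and every immature library was above every mature one. Rps27l counts were 25.2% of Rps27 counts in immature and 10.9% in mature cells under IL-3, and 50.8% and 35.8% under TSLP. Its log2 ratio was 0.86 higher in immature cells and 1.37 higher under TSLP (adjusted p = 0.025 for both, exact permutation). Rps27l has a transcript of 499 bases and Rps27 one of 345, and 25% of the 50-base stretches of Rps27 occur in another listed gene, Rps27rt.

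The remaining pairs differed less. Rpl7l1 was 5.49% of Rpl7 in IL-3 immature cells and 2.66% in TSLP mature cells, with a log2 ratio 0.56 higher in immature cells (adjusted p = 0.029, exact permutation) and 0.48 lower under TSLP (adjusted p = 0.025, exact permutation). Rpl36al was 74.1% to 91.3% of Rpl36a, with a log2 ratio 0.19 higher under TSLP (adjusted p = 0.029) and 0.10 higher in immature cells (adjusted p = 0.11, both exact permutation). Rps4l, a transcribed pseudogene, stayed below 1% of Rps4x, at 0.39% and 0.40% under IL-3 and 0.65% and 0.63% under TSLP (log2 difference 0.70, adjusted p = 0.029, exact permutation). Rpl39l with 13 counts in all, Rpl3l with 33 and Rpl10l with 0 were too rare to test. Without IL-3 immature library 1 or TSLP immature library 3, none of the ratios reached an adjusted p under 0.05 by exact permutation. The smallest adjusted p was then 0.05.

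Of the ribosomal protein genes that the name leaves out, Fau (log2 -2.04), made as a fusion with a ubiquitin-like part, and Rpl36al (-1.66) were lower in TSLP mature than IL-3 mature cells. Rpsa, a small subunit protein also known as laminin receptor, stood at 650, 490 and 441 CPM in IL-3 mature and 1353, 636 and 802 CPM in TSLP mature libraries and was higher (log2 0.82), as was the scaffold protein Rack1 (1.18). Rpsa, Rack1 and Rpl36al were higher in IL-3 immature than IL-3 mature cells (1.30, 1.39 and 1.44). Of 12 rows that annotate ribosomal protein pseudogenes, 11 were lower in TSLP mature cells and 4 in TSLP immature cells than under IL-3. Of all genes, 13% and 6.11% were lower in these comparisons. Some members share exonic stretches with listed pseudogenes, as Rpl14 does with Rpl14-ps1 (26.7% of its stretches). Others, such as Rpl38, share none with a listed gene. Reads of members may therefore count on pseudogene rows, and the part of such reads was not tested.

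Other parts of the translation machinery had calls on both sides between the cytokines in mature cells. Of 8 elongation factors 1 was higher and 1 lower in TSLP mature cells, where 10.9% of all genes were higher and 13% lower, with Eef1a1, which delivers aminoacyl-tRNA, at log2 0.37 (SE 0.18, not past the threshold). Of 28 initiation factors 5 were higher and 3 lower, and of 12 other mRNAs known to carry a TOP motif 2 were higher and none lower. Between the stages under IL-3, where 24.2% of all genes were higher in immature cells and 21.4% lower, 4 of these elongation factors, 16 initiation factors and 7 other TOP mRNAs were higher in immature cells, and 3 initiation factors lower. Examples were the cap-binding protein Eif4e (log2 1.88, SE 0.20), the nucleolar chaperone Npm1 (1.14, SE 0.29) and Hnrnpa1 (1.39, SE 0.17).

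Of the 77 mitochondrial ribosomal protein genes tested, 37 were higher in IL-3 immature than mature cells and none lower (24.2% and 21.4% of all genes), and 4 were higher and 7 lower in TSLP mature than IL-3 mature cells (10.9% and 13% of all genes). Of 13 genes of ribosomal subunit export, assembly and the p53 link, 8 were higher and 2 lower in IL-3 immature cells. They included Tsr1 (log2 3.35, SE 0.32) and Ltv1 (3.30, SE 0.40), both assembly factors of the small subunit. Of 18 genes of mTORC1, LARP1 and S6 kinase, 3 were higher and 5 lower in TSLP mature than IL-3 mature cells. Larp1, which binds TOP mRNAs, was higher in immature cells under IL-3 (1.15, SE 0.18) and TSLP (0.69, SE 0.18). The mTORC1 inhibitors Sesn2 (-2.27, SE 0.23, and -1.27, SE 0.21) and Ddit4 (-2.33, SE 0.24, and -1.31, SE 0.24) were lower there under both cytokines. All had adjusted p under 0.05 in edgeR. Between the stages 24.2% of all genes were higher and 21.4% lower in immature cells under IL-3, and 14.3% and 10.5% under TSLP. Larp1, Sesn2 and Ddit4 were picked after their values were seen, and stage calls of the list's other genes are not given here.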

How the data were processed

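RNA was measured in 12 libraries of sorted mouse basophils (polyadenylated RNA, amplified cDNA, Ion Proton). The table deposited by the authors holds read counts per gene symbol, not normalised. Per the labels and the study's methods, reads were trimmed with cutadapt and assigned with Bowtie2 to reference RNA sequences, and the builds named are mm10 and GRCm39 in the labels and GRCm38 in the methods. The study's own normalisation with TCC was not used here.

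Counts were tested with the edgeR 4.0.16 quasi-likelihood F test (R 4.3.3) with 1 mean per group over all 12 libraries, library sizes without Rn45s and scaled by trimmed mean of M values (TMM). Genes were kept by filterByExpr (minimum count 10, minimum total 15), p-values were adjusted by Benjamini-Hochberg over 10822 genes, and adjusted p under 0.05 counted as passing. CPM values use the same library sizes. The interaction term is the immature minus mature log2 change under TSLP less that under IL-3. Paralog ratios (prior count 0.5, at least 60 paralog counts) and the share of short transcripts were tested by exact permutation within strata. Lengths and positions are from GENCODE on GRCm38 (94.5% of tested genes had a length), using the shortest complete principal transcript. Symbols matched by name.

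The libraries are separate samples by their labels, and by the study's methods come from 3 cultures per group, so p-values measure the spread between these samples. No 2 libraries of a group agreed within sampling noise (chi-square per degree of freedom 2.18 to 58.4). Replicate numbers were not treated as pairing the groups, since the labels do not say that a number marks a shared culture. Same-numbered pairs deviated together only in part, which does not settle this. The choice matters: with a replicate block 39 members passed for stage under TSLP against 7 without. For TSLP against IL-3 in immature cells 47 passed against 13. Intervals cover counting error only. Members named were the stalk proteins and others of known role, paralog pairs, the 3 called members with the largest change each way per pairwise comparison, called interactions, and the 3 highest and lowest per kilobase and around the minimum. Genes beyond these were named after their values were seen. A few genes that these rules select are not reported here. The members and lists were chosen with earlier results of these data known. The alternatives were DESeq2 1.42.0, other scalings and filters, each library left out, a replicate block and length adjustments, the last chosen after seeing the data. In simulated data for the IL-3 stage comparison, the main test was checked on known fold changes before use.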

Additional observations from a re-analysis of the deposited data

Results flagged for a closer look

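Rpl3 was noted because its stage difference was not the same under both cytokines: by the edgeR interaction term, the immature minus mature change under TSLP was smaller than that under IL-3 by a log2 value of -1.58 (SE 0.30, adjusted p = 0.0069). The call was kept in all 25 alternatives run, with values from -1.80 to -1.36 and adjusted p up to 0.03.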

How the results depend on the processing

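No value was marked as reversed, but a change of sign in a ratio that passed in neither setting was marked as kept. Of 344 values that answer a comparison, 286 kept within the limits set. Medians were kept if they held their sign and moved by at most 0.65, the SD of the members' median log2 CPM within groups. That limit exceeds the IL-3 stage and interaction medians (0.29 and 0.54), so being kept says little there. With the length trend of abundant genes removed the interaction median was 0.06. Of 1123 values for single genes or ratios, 1035 kept their call, 87 lost it and 1 gained it. In mature cells 45 to 68 members passed for TSLP against IL-3 under every library left out, and their median lay between -2.02 and -1.19, and at -0.88 with the length trend of abundant genes removed. The causes of the following shifts were not tested, except that leaving out a library also removes samples.

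For IL-3 immature against mature cells, calls were 28 with no filter, 20 and 36 with the transcript length trend of all or abundant genes removed, and 8 to 22 leaving out single libraries. For TSLP immature against mature cells they were 55 with no filter, 13 with at least 10 CPM in 3 libraries, 25, 32 and 25 with the length trends of all genes, abundant genes and coding sequences removed, and 1 to 73 leaving out libraries. For TSLP against IL-3 immature cells they were 20 with Rn45s kept, with DESeq2 size factors, with DESeq2 itself and with at least 10 CPM in 3 libraries, 26 without TMM, 54 with no filter, 34, 40 and 36 with the length trends removed, and 1 to 42 leaving out libraries. For the interaction they were 2 without TMM, with DESeq2 and with the coding length trend removed, 3 and 4 with the other length trends, 15 with no filter, and 1 to 2 leaving out libraries. Over all 4 groups they were 61 to 77 leaving out libraries. Medians leaving out libraries were 0.20 to 0.36 and 0.51 to 1.34 for stage under IL-3 and TSLP, -1.23 to -0.61 for TSLP in immature cells and 0.17 to 1.01 for the interaction.

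The share of counts in members was 6.15% and 4.63% in IL-3 immature and mature cells with Rn45s kept, and with all ribosomal RNA entries left out 7.76% and 5.92% there and 4.88% in TSLP immature cells. Leaving out libraries it was 6.64% to 7.16% (immature) and 5.01% to 5.33% (mature) under IL-3, and 3.45% to 4.35% and 2.02% to 3.37% under TSLP. Paralog ratios past the threshold numbered 0 to 4 for stage and 0 to 4 for cytokine leaving out libraries. The difference in the share of other short transcripts ran from -2.14 to -1.83 points.

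Libraries with the same replicate number deviated together only in part. Of 18 such pairs 6 correlated above 0.1 (-0.08 to 0.39), and 7 of 12 libraries correlated best with their own number. The labels do not say whether a number marks a shared culture. With a replicate block, calls were 22 and 39 for stage under IL-3 and TSLP, 58 and 47 for TSLP in mature and immature cells and 1 for the interaction. Paralog ratios past the threshold were then 0 and 0, in a sign-flip test whose smallest possible p, over 64 flips, is 0.031.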
